A study of Mus musculus with 28 samples.

Results

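The effect of the Braf V600E allele was examined in mouse colon organoids in which Apc was deleted and the Trp53 R172H allele was switched on, by comparing RNA levels after recombination between organoids with the Braf allele (BPAC) and without it (PAC). The comparison rests on 8 of the 28 libraries of the series, all of them treated with 4-hydroxytamoxifen (4-HT). The 4 BPAC libraries came from the donor lines Col287 and Col312 and the 4 PAC libraries from the donor lines Col290 and Col313, with 2 cultures per line. All organoids were derived from C57BL/6N mice and carried the Villin::CreERT2 transgene, which places a 4-HT-inducible Cre recombinase under an intestinal epithelial promoter, and the floxed Apc allele on both chromosomes (Apc flox/flox). PAC organoids were in addition heterozygous for Trp53 LSL-R172H, in which a stop cassette keeps the mutant allele silent until Cre removes it, so that a wild-type Trp53 allele was retained. BPAC organoids carried the same alleles and were heterozygous for Braf floxV600E, which encodes wild-type BRAF before and BRAF V600E after recombination. Organoids were exposed to 3.5 µM 4-HT during 24 hours to induce recombination, and RNA was taken 3 days after that. Parallel cultures of the same lines received ethanol (EtOH) as the vehicle, and BAC and AC organoids, which lack the Trp53 allele and do or do not carry the Braf allele, served as a second pair of genotypes. The culture medium contained EGF, R-spondin, Noggin, Wnt3a and an inhibitor of GSK3, which limits how far ligand dependence can be read from these organoids.

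BRAF is a serine/threonine kinase that relays signals from RAS to MEK and ERK. The V600E exchange makes the kinase active without RAS. Active ERK phosphorylates transcription factors of the ETS and AP-1 families and induces its own feedback inhibitors, the Sprouty and Spred proteins and the dual-specificity phosphatases, whose transcripts are used as a readout of pathway output. In the normal colon, ERK activity is high near the crypt base, where stem and transit-amplifying cells divide, and low in the differentiated colonocytes of the surface. BRAF V600E occurs in colorectal cancers of the serrated type, in which it often precedes loss of p53 function.

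The libraries were deep and of epithelial character. Between 20956557 and 38984515 reads per library were counted on 13519 genes, and the culture 1 libraries of BPAC were the deepest, with 38984515 reads for Col287 and 38877844 for Col312. Thinning all libraries to the smallest total left 1099 genes higher and 967 lower, against 1170 and 1017 without thinning. All 16 markers of colon epithelium were counted, summing to 24460 to 27970 CPM (counts per 1000000 reads, scaled with TMM factors) in BPAC and 29770 to 32360 CPM in PAC, and none of them was called. Of the fibroblast and endothelial markers 2 of 12 were counted, with sums of 0.52 to 2.84 CPM in BPAC and 2.48 to 4.21 CPM in PAC. Of the immune cell markers 3 of 10 were counted, at 2.83 to 4.45 and 3.99 to 6.50 CPM. None of 10 gastric markers was among the genes counted.

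A mixture of lines and a set of RNA quality transcripts bear on the results and are given first. The culture 1 libraries of the PAC lines with 4-HT looked like mixtures of both lines. The line Col290 otherwise carried transcripts of the Y chromosome and the line Col313 the X-inactivation transcript Xist without them, but Col290-1 (culture 1 of Col290) had 25.2 CPM of Xist beside 13.8 CPM of the Y-linked Ddx3y, and Col313-1 had 22.0 CPM of Xist beside 13.0 CPM of Ddx3y. The counts of the pair differed by a chi-square of 2.40 per gene, against at least 17.9 for any other pair of libraries of the same group. Both stayed in the comparison as labelled, and results are given with and without them. Of 17 transcripts that follow RNA handling and cell stress 7 were lower in BPAC at an adjusted p below 0.01 (41.2%, against 7.52% of all genes, and 4 genes without Col290-2) and none higher, with a median log2 difference of -1.09. Their sum ran from 5586 to 9197 CPM in BPAC and from 10260 to 23870 CPM in PAC, so the groups did not overlap. The nuclear RNA Malat1 was counted at 73.4, 111, 90.5 and 75.7 CPM in the BPAC libraries and 181, 286, 161 and 247 CPM in the PAC libraries, with a log2 difference of -1.32 (SE 0.28, adjusted p = 0.00119). The mitochondrial transcript mt-Co3 was counted at 3.41, 5.54, 3.69 and 5.13 CPM in the BPAC libraries and 13.9, 14, 13.1 and 11.2 CPM in the PAC libraries, with a log2 difference of -1.56 (SE 0.30, adjusted p = 0.000486). The same list had a median log2 difference of -0.68 with EtOH, where no member was called. They differ between the same libraries as every gene group described here, and their part in the results was not tested. Because the libraries are bulk samples, fewer cells of a type and less RNA per cell cannot be told apart.

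After recombination, the genotypes differed at 2187 of 13519 genes (16.2%) in edgeR's quasi-likelihood test at a Benjamini-Hochberg adjusted p below 0.01, the rule by which a gene is called here. The differences were small for most of them, with a median absolute log2 difference of 0.611. Called genes were split between 1170 higher in BPAC (8.65% of all genes) and 1017 lower (7.52%). Among the differences of at least 2-fold the split was uneven, with 109 genes higher (0.806%) and 474 lower (3.51%). Before recombination the same lines, treated with EtOH, gave no call (0%), with a smallest adjusted p of 0.23 and 961 genes at an unadjusted p below 0.05. Limma-voom called none there (867 at an unadjusted p below 0.05) and DESeq2 called 1 (1042). The 4 BPAC and 4 PAC libraries did not overlap at 2140 genes in the higher direction (15.8%) and 1967 in the lower (14.5%) with 4-HT, against 92 (0.681%) and 115 (0.851%) with EtOH. The median over the called higher genes of the group mean was 69.6 CPM in BPAC and 47.8 CPM in PAC with 4-HT, and 41.2 and 39.5 CPM with EtOH. For the called lower genes it was 9.17 CPM in BPAC and 18.2 CPM in PAC with 4-HT, against 22.4 and 24.0 CPM with EtOH. By these medians, both genotypes lay above their EtOH level for the higher genes and below it for the lower genes. That BPAC lay further from it than PAC is set by how the genes were chosen and is no result.

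The calls depended on how many lines and libraries were used, and on which of them. P-values measure the spread between cultures, whereas the independent donors are 2 lines against 2. Each of the 2187 called genes kept its direction under every setting in which it was tested. These were all settings but for 2 filters on low counts, which kept 2083 and 1999 of the genes. The other tools called more, limma-voom 1311 higher and 1081 lower and DESeq2 1539 and 1309. Without both mixed PAC libraries 848 genes were higher and 780 lower, and with the counts of each line summed 968 and 708. Leaving out Col287-1 of BPAC gave 765 and 650, and leaving out Col290-2 of PAC gave 714 higher genes. With all libraries labelled as a line left out, the number of higher genes ran from 351 without Col290 to 711 without Col312. The number of lower genes ran from 441 to 631. Lines were summed and left out by label with the mixed libraries kept, so these fits do not separate the 2 PAC donors. Culture 2 alone, which holds neither mixed library and 2 libraries per group, called 56 and 97 genes, and 146 of the 2187 genes were among them. Culture 1 alone, with 2 libraries per group and both mixed libraries, called 863 and 867 genes, and 1250 of the 2187 were among them. Of the 101 called genes whose values are given here, 75 were also called in every fit that left out 1 of the 8 libraries or both mixed libraries. A gene that was not is given with the adjusted p of the fit without it.

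**Figure D1:**
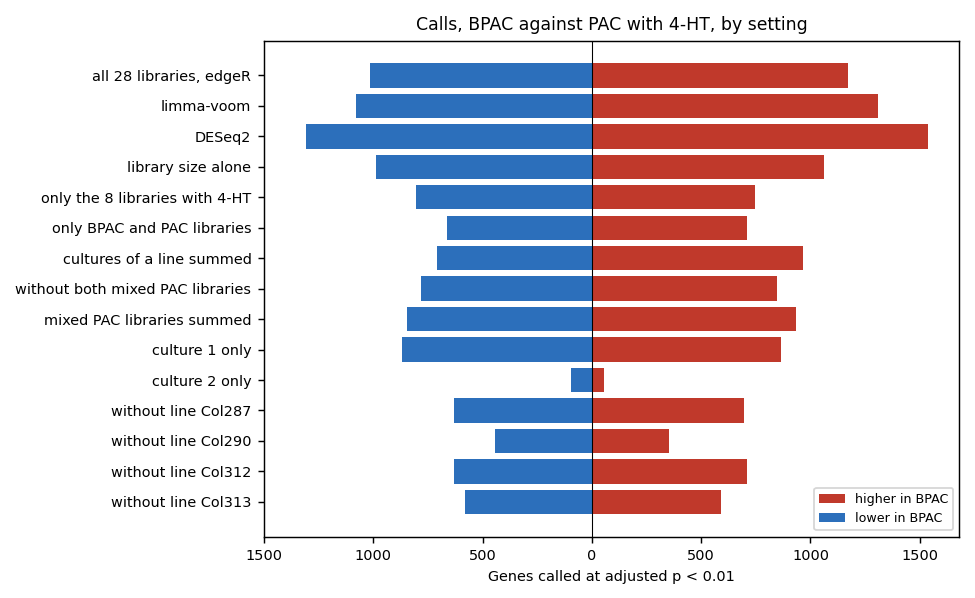
Number of genes called at an adjusted p below 0.01 (horizontal axis) between BPAC and PAC with 4-HT under 15 settings (rows), with genes higher in BPAC to the right and lower to the left. The bars stand at 1170 and 1017 genes for edgeR with all 28 libraries in the fit and run from 1539 and 1309 with DESeq2 to 56 and 97 with culture 2 alone.

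None of the targeted genes was called between the genotypes. Gene counts do not separate the mutant from the wild-type allele, so they do not show the V600E or R172H exchange. Braf (ENSMUSG00000002413, GRCm38 chromosome 6, 39603237 to 39725463, minus strand) was counted at 22.8, 22.9, 22.9 and 23.4 CPM in the BPAC libraries and 20.3, 22.8, 20.4 and 22.1 CPM in the PAC libraries. The BPAC values lay just above the highest PAC value, and the log2 difference of 0.11 (95% confidence interval -0.06 to 0.28) did not pass the test (adjusted p = 0.373). Trp53 (ENSMUSG00000059552, chromosome 11, 69580359 to 69591873, plus strand), the gene of the tumor suppressor p53, was counted at 209.6, 148, 227 and 190.1 CPM in the BPAC libraries and 178, 155, 174 and 155 CPM in the PAC libraries, against 51.4 to 60.1 CPM in BPAC and 51.9 to 66.0 CPM in PAC with EtOH. All 8 libraries with 4-HT lay above all 8 with EtOH, and the genotypes overlapped, with a log2 difference of 0.23 (SE 0.10, adjusted p = 0.103); without Col287-2 the adjusted p was 0.00843. Apc (ENSMUSG00000005871, chromosome 18, 34220924 to 34322552, plus strand) was counted at 53.7 to 73.6 CPM in BPAC and 51.4 to 68.0 CPM in PAC with 4-HT and at 28.5 to 41.3 CPM in BPAC and 27.9 to 49.7 CPM in PAC with EtOH, with a log2 difference between genotypes of 0.05 (SE 0.17, adjusted p = 0.86). None of the 15 counted kinases and regulators of the RAS-RAF-MEK-ERK cascade was called by edgeR, limma-voom or DESeq2 (2 higher at an unadjusted p below 0.05 in edgeR), and their median log2 difference was 0.09. Map2k1, which encodes the BRAF substrate MEK1, was at 163 to 225 CPM in BPAC and 137 to 149 CPM in PAC, with a log2 difference of 0.36 (SE 0.13, adjusted p = 0.0362).

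Some transcripts of ERK feedback inhibitors and ETS factors were higher in BPAC. Of the 29 counted genes of the list of ERK feedback inhibitors and immediate targets, 7 were called higher and 1 lower (24.1% and 3.4%, against 8.65% and 7.52% of all genes), and the list's median log2 difference was 0.23 against 0.005 over all genes and stood at 0.17 with EtOH. The counts were 6 and 1 without the mixed PAC libraries. Spry4, a Sprouty inhibitor of receptor signalling to RAS, stood at 15.7, 16.8, 17.5 and 12.5 CPM in the BPAC libraries and 4.80, 3.23, 4.85 and 3.80 CPM in the PAC libraries, in the order Col287-1, Col287-2, Col312-1, Col312-2 and Col290-1, Col290-2, Col313-1, Col313-2 that is kept throughout. Each BPAC library lay above each PAC library by a wide margin, and the log2 difference was 1.90 (SE 0.19, adjusted p = 4.21e-07), or 3.73-fold. Dusp6, a phosphatase that removes the activating phosphates from ERK, was counted at 133, 140.2, 138 and 120.4 CPM in the BPAC libraries and 59.6, 63.2, 61.4 and 65.8 CPM in the PAC libraries, with a log2 difference of 1.09 (SE 0.16, adjusted p = 2.87e-05). Its levels hardly varied within a genotype. The ETS factor Etv4 was counted at 106, 76.9, 112 and 89.2 CPM in the BPAC libraries and 46.4, 34.5, 49.6 and 33.6 CPM in the PAC libraries, with a log2 difference of 1.22 (SE 0.14, adjusted p = 2.26e-06). In both genotypes the culture 1 libraries held more Etv4 than the culture 2 libraries, and the groups did not overlap. Its relative Etv5 was at 69.0, 64.0, 63.6 and 68.5 CPM in the BPAC libraries and 30.3, 21.9, 27.3 and 25.5 CPM in the PAC libraries, with a log2 difference of 1.34 (SE 0.19, adjusted p = 1.88e-05). Fosl1, the AP-1 subunit FRA1, ranged over 37.0 to 60.7 CPM in BPAC and 22.6 to 28.5 CPM in PAC and had a log2 difference of 0.87 (SE 0.18, adjusted p = 0.000888). Spred1, a Sprouty-related inhibitor of RAF activation, ranged over 84.0 to 104 CPM in BPAC and 46.8 to 66.9 CPM in PAC, with a log2 difference of 0.67 (SE 0.13, adjusted p = 0.000362), and was not called without the mixed PAC libraries (adjusted p = 0.0183).

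Not all members of the list were higher. Among the feedback inhibitor genes, Dusp7 was called higher (log2 difference 0.68, SE 0.13, adjusted p = 0.000542), while Spry1 (0.38, adjusted p = 0.0755), Spry2 (0.05, adjusted p = 0.795), Errfi1 (0.22, adjusted p = 0.231) and Dusp10 (-0.41, adjusted p = 0.149) did not pass. Without Col287-2, Dusp10 was called lower (adjusted p = 0.00927). Jun, an AP-1 subunit and the member called lower, was counted at 72.0, 94.2, 87.9 and 77.0 CPM in the BPAC libraries and 179.9, 145, 187 and 126 CPM in the PAC libraries, so that the highest BPAC library lay below the lowest PAC library, with a log2 difference of -0.95 (SE 0.17, adjusted p = 0.000196). Egr1, a zinc finger factor induced within minutes of ERK activation, was at 71.2, 86.2, 71.0 and 65.2 CPM in BPAC and 145, 92.5, 149 and 89.2 CPM in PAC and did not pass the test (log2 difference -0.70, SE 0.27, adjusted p = 0.0526); culture 1 alone gave an adjusted p of 0.00156. In PAC, both genes were highest in the mixed libraries Col290-1 and Col313-1. Among 11 counted EGF receptors and ligands 1 was called lower (9.1%, near the 7.52% of all genes) and 0 higher. Without Col287-2, and in culture 1 alone, 3 were lower. The called gene was that of the ligand amphiregulin (Areg), at 126 to 182 CPM in BPAC and 202 to 255 CPM in PAC. Its log2 difference was -0.57 (SE 0.15, adjusted p = 0.00601). The Areg call was lost without the mixed PAC libraries (adjusted p = 0.0171) and without any of 5 single libraries (up to 0.0344, without Col290-2).

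**Figure D2:**
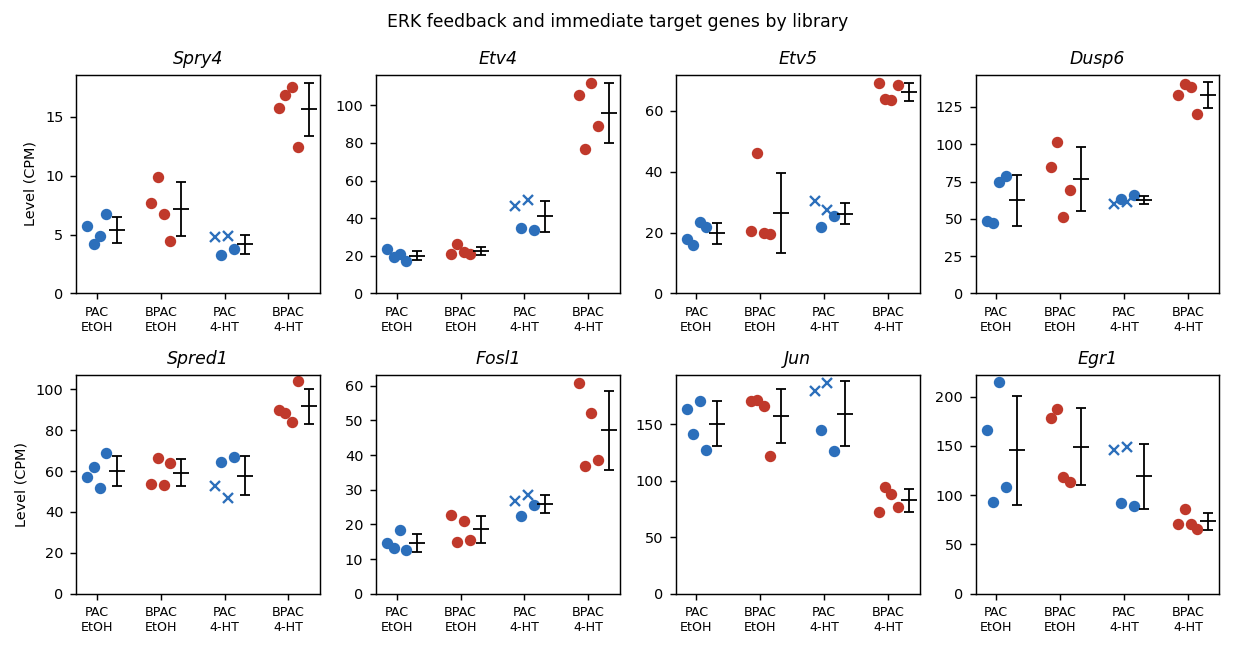
Levels in CPM (vertical axes) of 8 genes of the ERK list in each PAC and BPAC library with EtOH and with 4-HT, with group mean and SD in black and crosses for the mixed PAC libraries. With 4-HT, Spry4 lies at 12.5 to 17.5 CPM in BPAC and at 3.23 to 4.85 CPM in PAC, while Jun and Egr1 lie lower in BPAC.

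The largest differences in the higher direction included surface proteins, the feedback inhibitor Spry4 and a stress pseudokinase. Ly6c2, a GPI-anchored surface protein of the Ly6 family, was counted at 10.01, 16.2, 6.16 and 7.18 CPM in the BPAC libraries and 0.272, 0.591, 0.104 and 0.513 CPM in the PAC libraries. It was nearly absent in EtOH, at most 0.160 CPM in any library, and its log2 difference of 4.76 (SE 0.49, adjusted p = 5.01e-07) rests on few counts in PAC. Its neighbour Ly6c1 was counted at 147, 249.7, 123 and 124 CPM in the BPAC libraries and 41.2, 32.5, 40.8 and 43.5 CPM in the PAC libraries, with a log2 difference of 2.03 (SE 0.22, adjusted p = 1.18e-06). Both genes are near-identical copies, and how reads were divided between them is uncertain. Lgals1, which encodes the sugar-binding protein galectin-1, was at 16.1, 11.3, 24.4 and 16.2 CPM in the BPAC libraries and 4.02, 1.59, 2.91 and 1.68 CPM in the PAC libraries, with a log2 difference of 2.73 (SE 0.32, adjusted p = 2.65e-06). It stood at 0.404 to 1.61 CPM in all EtOH libraries, so that both genotypes were above EtOH or at its upper end, and BPAC by far the most. Trib3, a pseudokinase induced in the response to amino acid shortage and endoplasmic reticulum stress, was counted at 26.5, 41.0, 29.2 and 27.6 CPM in the BPAC libraries and 8.64, 9.91, 10.6 and 8.25 CPM in the PAC libraries, with a log2 difference of 1.73 (SE 0.28, adjusted p = 8.21e-05). The adaptor gene Sh2d5 was at 4.47 to 14.3 CPM in BPAC and 1.86 to 2.05 CPM in PAC, with a log2 difference of 2.22 (SE 0.32, adjusted p = 1.87e-05). The pentraxin gene Nptx2 was at 10.6 to 13.9 CPM in BPAC and 2.05 to 4.55 CPM in PAC, with a log2 difference of 1.77 (SE 0.32, adjusted p = 0.000263).

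The other genes among the 12 with the largest rise, Cav1, Egln3, Adm, Hif3a and Ptges, had the largest standard errors of the 12. Cav1, the coat protein of caveolae, was counted at 54.4, 174, 66.3 and 48.0 CPM in the BPAC libraries and 5.86, 0.909, 6.06 and 1.09 CPM in the PAC libraries. Col287-2 was far above the other BPAC libraries, and the PAC culture 1 libraries were above the PAC culture 2 libraries, with a log2 difference of 4.59 (SE 0.96, adjusted p = 0.000932). Egln3, a hypoxia-inducible prolyl hydroxylase that marks HIF alpha subunits for degradation, was counted at 222, 487, 305 and 233 CPM in the BPAC libraries and 89.1, 23.8, 93.4 and 35.6 CPM in the PAC libraries, with a log2 difference of 2.36 (SE 0.59, adjusted p = 0.00412). The vasodilator peptide gene Adm ranged over 5.44 to 26.1 CPM in BPAC and 0.5 to 4.32 CPM in PAC, the HIF family gene Hif3a over 6.77 to 24.7 CPM in BPAC and 0.958 to 2.17 CPM in PAC, and the prostaglandin E synthase gene Ptges over 7.66 to 18.6 CPM in BPAC and 0.955 to 2.91 CPM in PAC. Their log2 differences were 2.65 (SE 0.71, adjusted p = 0.00692), 3.02 (SE 0.71, adjusted p = 0.00258) and 2.37 (SE 0.56, adjusted p = 0.00282). Each of Egln3, Adm, Hif3a and Ptges lost its call when single libraries were left out, with adjusted p up to 0.0187, 0.0278, 0.0113 and 0.0135. The libraries concerned were Col287-2, Col290-2 and Col313-2 for each of the 4 genes, and Col312-1 as well for Adm. Hif3a was not called without both mixed libraries either (adjusted p = 0.0157). With EtOH, Egln3 also spread widely, from 84.8 to 428 CPM in BPAC and from 21.7 to 303 CPM in PAC. Cav1 ran from 8.15 to 76.3 CPM in BPAC and from 0.52 to 54.9 CPM in PAC with EtOH, and the genotypes overlapped.

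**Figure D3:**
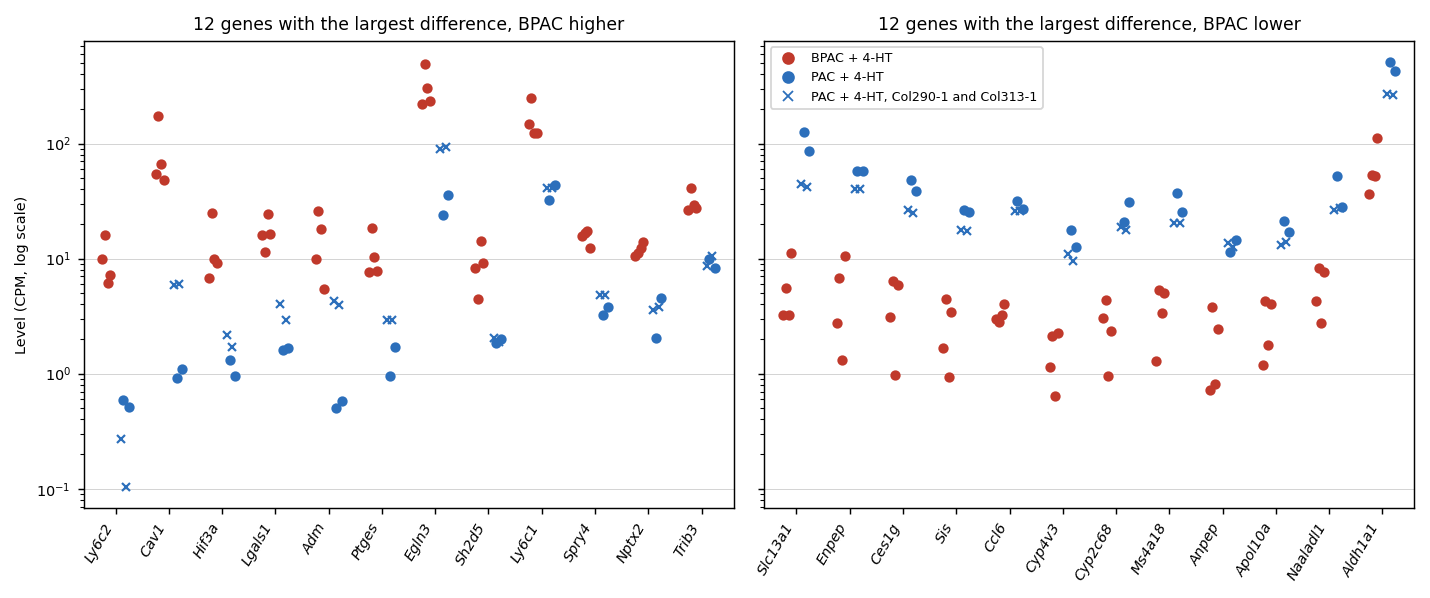
Levels in CPM (vertical axis, log scale) of the 12 genes with the largest difference in each direction, with BPAC libraries in red and PAC libraries in blue; crosses mark the mixed PAC libraries. Red and blue points do not overlap for any of the 24 genes, as the choice of the genes required, and the BPAC points of Cav1 run from 48.0 to 174 CPM.

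Genes of the absorptive brush border were among the largest falls. Slc13a1, the sodium-sulfate cotransporter of absorptive cells, was counted at 3.24, 5.54, 3.23 and 11.1 CPM in the BPAC libraries and 44.3, 126, 41.6 and 85.8 CPM in the PAC libraries, with a log2 difference of -3.70 (SE 0.54, adjusted p = 2.34e-05). The disaccharidase gene Sis (sucrase-isomaltase) was at 1.67, 4.47, 0.928 and 3.45 CPM in the BPAC libraries and 17.8, 26.5, 17.4 and 25.3 CPM in the PAC libraries, with a log2 difference of -3.08 (SE 0.49, adjusted p = 5.92e-05). The PAC libraries themselves lay below their EtOH level of 34.1 to 147 CPM, and the BPAC libraries lower still. Among the peptidases of the brush border, Enpep was at 1.31 to 10.6 CPM in BPAC and 40.2 to 58.2 CPM in PAC (log2 difference -3.22, SE 0.50, adjusted p = 4.55e-05), Anpep at 0.725 to 3.81 CPM in BPAC and 11.5 to 14.4 CPM in PAC (log2 difference -2.79, SE 0.49, adjusted p = 0.000186) and Naaladl1 at 2.74 to 8.24 CPM in BPAC and 26.2 to 52.1 CPM in PAC (log2 difference -2.56, SE 0.38, adjusted p = 3.53e-05). Culture 1 libraries of BPAC were lower than culture 2 libraries of the same line for Sis, Enpep and Anpep. Other members of the 12 were the carboxylesterase gene Ces1g (log2 difference -3.10, SE 0.41, adjusted p = 1.03e-05), the cytochrome P450 genes Cyp4v3 (log2 difference -3.06, SE 0.42, adjusted p = 1.35e-05) and Cyp2c68 (log2 difference -3.06, SE 0.39, adjusted p = 6.09e-06), Ms4a18 (log2 difference -2.80, SE 0.41, adjusted p = 2.73e-05), the apolipoprotein L gene Apol10a (log2 difference -2.56, SE 0.34, adjusted p = 9.82e-06) and the retinaldehyde dehydrogenase gene Aldh1a1 (log2 difference -2.53, SE 0.37, adjusted p = 2.29e-05). Ces1g and Cyp2c68 belong to clusters of similar genes, and reads may be divided among copies. The chemokine gene Ccl6 differed from the rest in its course. It was counted at 3.00, 2.84, 3.26 and 4.01 CPM in the BPAC libraries and 25.7, 31.4, 26.1 and 27.0 CPM in the PAC libraries, with a log2 difference of -3.07 (SE 0.29, adjusted p = 1.77e-07), while with EtOH it stood at 6.21 to 8.86 CPM in BPAC and 9.14 to 21.5 CPM in PAC. Ccl6 was thus above its EtOH level in all PAC libraries and below it in all BPAC libraries.

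The list of absorptive colonocyte genes, which holds Sis, Anpep and Ces1g, had 15 of 35 counted members called lower, 0 higher and a median log2 difference of -0.89, against 7.52% of all genes called lower. The counts were the same, 15 and 0, without the mixed PAC libraries. Guca2a, which encodes the peptide guanylin, was counted at 219, 271, 215 and 354 CPM in the BPAC libraries and 1029, 1167, 1063 and 850.5 CPM in the PAC libraries, with a log2 difference of -1.96 (SE 0.19, adjusted p = 2.94e-07). The mucin-like cadherin gene Cdhr5, which links microvilli, was at 333 to 517 CPM in BPAC and 802 to 1028 CPM in PAC, with a log2 difference of -1.09 (SE 0.12, adjusted p = 7.49e-07). The amino acid transporter gene Slc6a14 was counted at 41.7, 151, 41.3 and 121 CPM in the BPAC libraries and 307, 542, 286 and 619.9 CPM in the PAC libraries, with a log2 difference of -2.31 (SE 0.34, adjusted p = 2.45e-05), and the metalloprotease gene Mep1a was at 10.04 to 28.1 CPM in BPAC and 54.3 to 83.5 CPM in PAC, with a log2 difference of -1.79 (SE 0.24, adjusted p = 1.02e-05). For Slc6a14 the culture 2 libraries were higher than the culture 1 libraries in every line. Not every colonocyte marker was called lower. Krt20, a keratin of surface colonocytes, was at 202, 620.3, 164 and 341 CPM in the BPAC libraries and 337, 337, 332 and 357 CPM in the PAC libraries, with PAC values inside the BPAC range and a log2 difference of -0.04 (SE 0.28, adjusted p = 0.933). Car1, carbonic anhydrase 1, had a log2 difference of -0.72 (SE 0.25, adjusted p = 0.0314), and the chloride transporter gene Slc26a3 was at 19.96 to 112 CPM in BPAC and 113 to 157 CPM in PAC, with a log2 difference of -0.77 (SE 0.40, adjusted p = 0.156). Car1 passed without the mixed PAC libraries (adjusted p = 0.00567), with the cultures of each line summed (0.00783), in culture 1 alone (0.000479) and in limma-voom with the line as a random block (0.00936). Genes that mark small intestine and Paneth cells summed to 110.7 to 227.7 CPM in BPAC and 421.6 to 541.1 CPM in PAC, with 2 of 8 counted members called lower.

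Secretory lineages showed scattered calls. Of 24 goblet and deep crypt secretory genes 3 were lower (12.5%) and 2 higher (8.3%), near the 7.52% and 8.65% of all genes, with a median log2 difference of -0.33; without the mixed PAC libraries 3 were lower and 0 higher. The higher calls were also 0 without Col287-1, Col312-1, Col290-2 or Col313-2, 1 without Col312-2 or Col313-1, and 4 without Col287-2. The lower calls were 5 without Col312-2 and 2 without Col287-1 or Col290-2. The membrane mucin gene Muc13 was counted at 290.0 to 523 CPM in BPAC and 594 to 776 CPM in PAC, with a log2 difference of -0.84 (SE 0.13, adjusted p = 4.55e-05), and the trefoil factor gene Tff3 at 132 to 225 CPM in BPAC and 349 to 410.4 CPM in PAC, with a log2 difference of -1.19 (SE 0.22, adjusted p = 0.000288). The resistin-like gene Retnlb was at 4.37 to 12.9 CPM in BPAC and 16.3 to 30.9 CPM in PAC (log2 difference -1.60, SE 0.38, adjusted p = 0.00268), but not called without the mixed libraries (adjusted p = 0.0155) or without any of 3 single libraries (up to 0.0149, without Col287-1). Agr2, a disulfide isomerase needed for mucin folding, was higher at 571 to 1155 CPM in BPAC and 461 to 647 CPM in PAC (log2 difference 0.68, SE 0.18, adjusted p = 0.00565), and its call was lost without the mixed libraries (adjusted p = 0.0163) and without any of 6 single ones (up to 0.0260, without Col313-2). The gel-forming mucin gene Muc2 (log2 difference -0.32, SE 0.25, adjusted p = 0.37) and the secretory lineage factor gene Atoh1 (log2 difference -0.33, SE 0.20, adjusted p = 0.223) did not pass. Among 19 enteroendocrine genes 1 was higher, the tachykinin precursor gene Tac1 at 5.97 to 7.89 CPM in BPAC and 1.99 to 3.83 CPM in PAC (log2 difference 1.47, SE 0.32, adjusted p = 0.00138), and 1 was lower, the carboxypeptidase E gene Cpe at 29.4 to 37.6 CPM in BPAC and 46.0 to 65.01 CPM in PAC (log2 difference -0.65, SE 0.14, adjusted p = 0.00138). Tac1 was not called without the mixed libraries (adjusted p = 0.0315), nor Cpe without Col290-2 (0.0123). Chromogranin A (Chga) had a log2 difference of -1.06 (SE 0.46, adjusted p = 0.0834). No tuft cell gene of 13 was called by edgeR (6 lower and 0 higher at an unadjusted p below 0.05). Limma-voom called 1 lower and DESeq2 3, and without Col312-2 edgeR called 2. The median log2 difference was -0.80. Dclk1, a tuft cell kinase, was at 1.14 to 5.38 CPM in BPAC and 3.81 to 5.36 CPM in PAC (log2 difference -0.80, SE 0.38, adjusted p = 0.123). Its adjusted p was 0.0086 without Col312-2 and 0.000944 in culture 1 alone.

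Stem cell and WNT genes gave few calls, and some identity factors were lower. Of 21 counted intestinal stem cell genes 1 was higher (4.8%) and 3 lower (14.3%), against 8.65% and 7.52% of all genes, with a median log2 difference of -0.10 (0.12 without the mixed PAC libraries). The lower calls were 0 without Col287-1 and 1 without Col287-2, Col312-1 or Col290-2, and the higher call was lost whichever single library was left out. Lgr5, the R-spondin receptor of crypt base stem cells, was counted at 101, 135, 134 and 118 CPM in the BPAC libraries and 85.8, 75.4, 80.9 and 65.6 CPM in the PAC libraries. All BPAC libraries lay above all PAC libraries, but the log2 difference of 0.67 (SE 0.26, adjusted p = 0.0548) did not pass, whereas a fit of the 8 libraries alone gave an adjusted p of 0.00422. The called members Sox4 (-0.69) and Fgfr4 (0.37) lost their calls without the mixed PAC libraries (adjusted p = 0.114 and 0.0179). Single libraries ended both calls too, 5 of them for Sox4 (up to 0.0261, without Col287-2) and each of the 8 for Fgfr4 (up to 0.0389, without Col290-2). Of 20 WNT target and feedback genes 1 was higher, the ephrin receptor gene Ephb2 (0.39), and 1 lower, the transcriptional repressor gene Zfp703 (-0.58), and neither was called without the mixed libraries (adjusted p = 0.0625 and 0.0236). Ephb2 also lost its call without any of 6 single libraries (up to 0.0336, without Col313-2). Among 24 intestinal identity transcription factors 4 were lower (16.7%) and 0 higher. Ppara, the nuclear receptor for fatty acids, was counted at 1.89, 3.20, 1.88 and 3.76 CPM in the BPAC libraries and 9.15, 9.96, 9.11 and 8.56 CPM in the PAC libraries, with a log2 difference of -1.79 (SE 0.22, adjusted p = 3.75e-06), and the homeobox gene Isx at 177 to 219 CPM in BPAC and 260.2 to 300.3 CPM in PAC, with a log2 difference of -0.53 (SE 0.08, adjusted p = 2.87e-05). The vitamin D receptor gene Vdr had a log2 difference of -0.77 (SE 0.17, adjusted p = 0.00182) and the bile acid receptor gene Nr1h4 had a log2 difference of -0.89 (SE 0.21, adjusted p = 0.00318). Vdr was not called without the mixed libraries (0.0135), and Nr1h4 was not called without any of 4 single libraries (up to 0.0188, without Col287-1). Cdx2 and Hnf4a, which maintain intestinal identity, had log2 differences of 0.08 (SE 0.22, adjusted p = 0.823) and 0.17 (SE 0.11, adjusted p = 0.273).

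Genes of fetal-like and serrated states gave no common direction. Of 39 counted fetal-like and regeneration genes 4 were higher (10.3%) and 1 lower (2.6%), against 8.65% and 7.52% of all genes, with a median log2 difference of 0.09. Without the mixed PAC libraries 2 were higher and 0 lower, and without Col312-1 2 were higher. Besides Lgals1, the called higher members were the stem cell antigen gene Ly6a, at 1203 to 1454 CPM in BPAC and 845 to 1009 CPM in PAC (log2 difference 0.53, SE 0.12, adjusted p = 0.00178), Tinagl1 (log2 difference 0.52, SE 0.12, adjusted p = 0.00281) and Ly6e (log2 difference 1.00, SE 0.26, adjusted p = 0.00606). Ly6e did not overlap between the genotypes with EtOH either, at 106 to 162 CPM in BPAC and 46.1 to 104 CPM in PAC, and its contrast of the 4-HT changes was 0.14 (SE 0.37, adjusted p = 0.866) on the log2 scale. Ly6a and Tinagl1 were not called without the mixed libraries (adjusted p = 0.0327 and 0.0137). Tinagl1 also lost its call without Col312-1 (0.0106) and Ly6e without any of 5 single libraries (up to 0.0284, without Col287-1). Anxa1 had a log2 difference of -0.29 (SE 0.22, adjusted p = 0.343), and Clu, a marker of regenerating stem cells, was at 48.4, 28.9, 168 and 98.9 CPM in the BPAC libraries and 171.6, 179, 176 and 192 CPM in the PAC libraries, with a log2 difference of -1.06 (SE 0.56, adjusted p = 0.159). The BPAC libraries of Col287 were the lowest for Clu, and without Col312 the adjusted p was 0.00580. Of 29 genes described for gastric differentiation and serrated lesions, 15 were counted, and 2 of these were lower (13.3%), Vnn1 (log2 difference -1.36, SE 0.27, adjusted p = 0.000539) and Gsdmc2 (log2 difference -2.08, SE 0.44, adjusted p = 0.00102). Anxa10, a marker of serrated lesions, was at 1.60 to 4.16 CPM in BPAC and 1.64 to 3.17 CPM in PAC, with a log2 difference of 0.03 (SE 0.42, adjusted p = 0.971). Of 27 Hippo-YAP target genes 2 were lower (7.4%), among them Amotl2 (log2 difference -0.53, SE 0.12, adjusted p = 0.00143), and edgeR called 0 higher. Limma-voom and DESeq2 each called 2 higher. The lower count was 1 without Col287-1, Col287-2, Col312-1, Col290-2 or Col313-2.

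**Figure D4:**
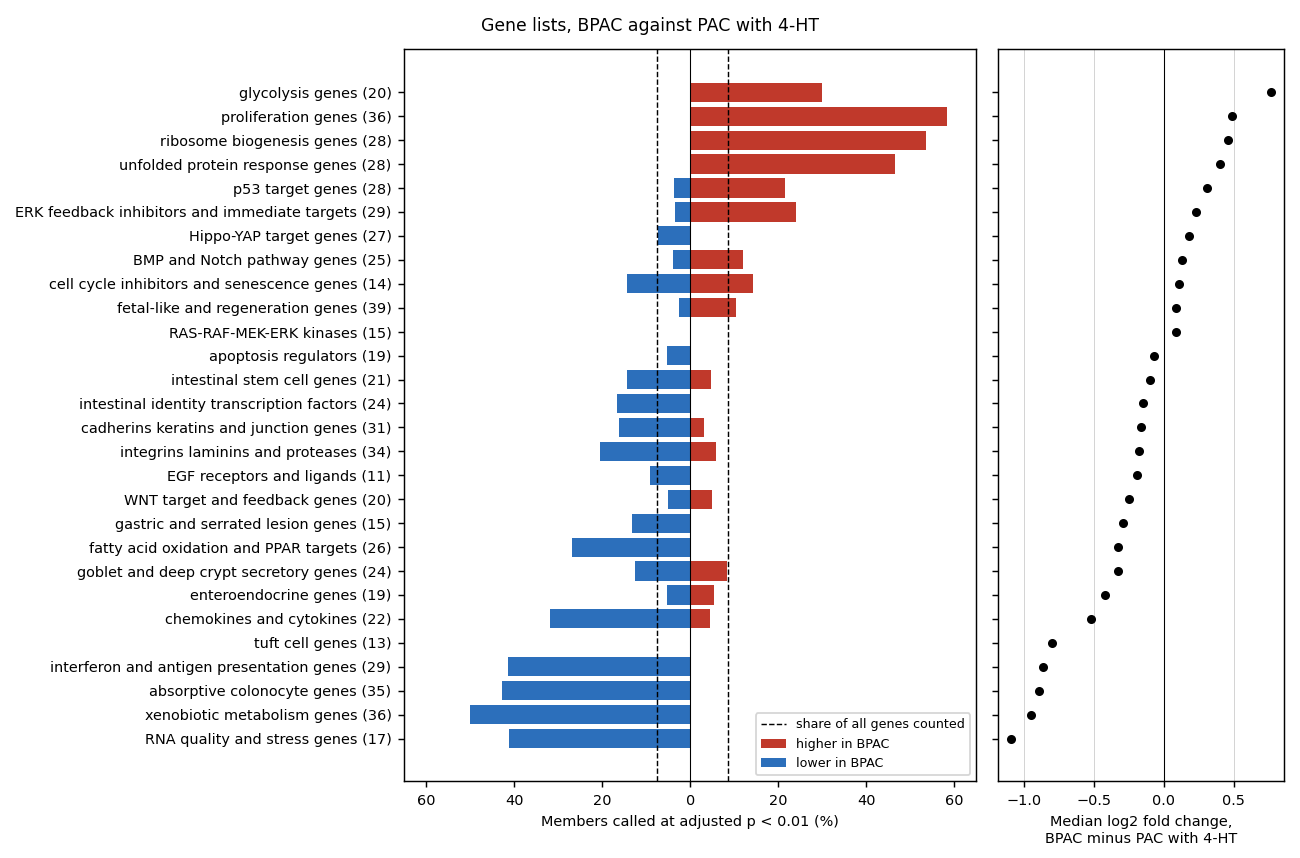
Share of counted members called higher (right, red) or lower (left, blue) in BPAC with 4-HT for each gene list (rows, number counted in brackets), with dashed lines at the shares over all genes, 8.65% and 7.52%. The right panel gives each list's median log2 difference; proliferation, ribosome biogenesis and unfolded protein response genes have calls in the higher direction alone.

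Many genes of cell division were called higher in BPAC. Of 36 proliferation genes 21 were called higher and 0 lower, with a median log2 difference of 0.49, against 8.65% of all genes called higher. Without the mixed PAC libraries 21 were higher and 0 lower, and without Col287-1 or Col290-2 14 were. The 15 members not called included Mki67 (log2 difference 0.15, adjusted p = 0.461) and Top2a (0.34, adjusted p = 0.086). Ccna2, which encodes cyclin A2, was counted at 293, 259, 250.5 and 269 CPM in the BPAC libraries and 173, 146, 164 and 154 CPM in the PAC libraries. Its lowest BPAC library was far above its highest PAC library, and the log2 difference was 0.75 (SE 0.07, adjusted p = 1.13e-07), or 1.68-fold. Ccnb1 (cyclin B1) was at 194 to 218 CPM in BPAC and 92.4 to 133 CPM in PAC, with a log2 difference of 0.82 (SE 0.10, adjusted p = 2.55e-06). Rrm2, a subunit of the ribonucleotide reductase that supplies DNA precursors, was at 204 to 258 CPM in BPAC and 105 to 141 CPM in PAC, with a log2 difference of 0.81 (SE 0.10, adjusted p = 2.26e-06). The mitotic kinase gene Aurka was at 112 to 145 CPM in BPAC and 68.7 to 93.0 CPM in PAC, with a log2 difference of 0.65 (SE 0.10, adjusted p = 6.2e-05). With EtOH, Ccna2 stood at 128 to 146 CPM in BPAC and 117 to 139.7 CPM in PAC, below every BPAC library with 4-HT. Genes of ribosome biogenesis followed, with 15 of 28 higher (53.6%), 0 lower and a median log2 difference of 0.47; 14 were higher without the mixed libraries, and 9 without Col287-1 or Col290-2. Wdr43, a component of the small subunit processome, was at 160.1 to 183 CPM in BPAC and 104 to 123 CPM in PAC, with a log2 difference of 0.60 (SE 0.10, adjusted p = 6.93e-05). The rRNA methyltransferase gene Nop2 had a log2 difference of 0.60 (SE 0.10, adjusted p = 0.000104), and Polr1b, a subunit of RNA polymerase I, had a log2 difference of 0.71 (SE 0.12, adjusted p = 0.000127).

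Genes of the unfolded protein and amino acid responses were called in the higher direction alone. These responses raise chaperones of the endoplasmic reticulum through the factors ATF6 and XBP1, and genes of amino acid supply through ATF4. Of 28 counted members 13 were called higher (46.4%, against 8.65% of all genes) and 0 lower, with a median log2 difference of 0.40. Without the mixed PAC libraries 7 were higher, and without Col287-1 or Col312-1 8 were. Asns, asparagine synthetase and a target of ATF4, was counted at 254, 276, 230.0 and 229 CPM in the BPAC libraries and 126, 126, 124 and 128 CPM in the PAC libraries. The PAC values spanned only 124 to 128 CPM, and the log2 difference was 0.97 (SE 0.09, adjusted p = 9.66e-08). The chaperone gene Hspa5 (BiP) was counted at 1085, 971, 989 and 972 CPM in the BPAC libraries and 671, 708, 651 and 663 CPM in the PAC libraries, with a log2 difference of 0.58 (SE 0.08, adjusted p = 1.25e-05). All BPAC libraries lay above all PAC libraries and above all EtOH libraries, which ran from 702 to 745 CPM in BPAC and 676 to 846 CPM in PAC. Its partners Hsp90b1 (GRP94) and Creld2 were at 406 to 442 CPM in BPAC and 298 to 329.6 CPM in PAC (log2 difference 0.43, SE 0.06, adjusted p = 2.74e-05) and 69.3 to 96.7 CPM in BPAC and 56.3 to 62.8 CPM in PAC (log2 difference 0.51, SE 0.08, adjusted p = 8.36e-05). Xbp1 was at 259.7 to 308 CPM in BPAC and 186 to 217 CPM in PAC, with a log2 difference of 0.45 (SE 0.09, adjusted p = 0.00066).

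Some promoters of this list hold a known element of this response. The list was made of genes known for the response, so its share of matches is no independent result. The endoplasmic reticulum stress response element, CCAAT and CCACG with any 9 bases between them, was searched on both strands in the 250 bases before the transcription start of each gene in the RefSeq promoters of GRCm38.p6. It occurred in 0.113% of all 32851 windows and in 7 of 25 windows of the list (28%). Of the 7 genes that held it, Hspa5, Hsp90b1, Creld2 and Pdia6 were called higher, while Dnajc3, Calr and Canx were not. Its first letters also match the CCAAT box, which was found in 76.0% of the list's windows and in 33.8% of all windows. The windows of the 3 named chaperone genes are shown because their transcripts were all called higher, 5′ to 3′ on the strand of the gene, with matches on either strand in capitals. Hspa5 lies at chr2:34771840-34772089 on the plus strand, Hsp90b1, which has 2 matches, at chr10:86705445-86705694 on the minus strand, and Creld2 at chr15:88819396-88819645 on the plus strand.
Hspa5: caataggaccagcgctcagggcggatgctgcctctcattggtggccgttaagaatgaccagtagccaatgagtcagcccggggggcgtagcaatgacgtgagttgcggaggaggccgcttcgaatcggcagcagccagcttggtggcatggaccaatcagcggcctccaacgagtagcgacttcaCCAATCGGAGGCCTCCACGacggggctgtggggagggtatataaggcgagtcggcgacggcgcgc
Hsp90b1: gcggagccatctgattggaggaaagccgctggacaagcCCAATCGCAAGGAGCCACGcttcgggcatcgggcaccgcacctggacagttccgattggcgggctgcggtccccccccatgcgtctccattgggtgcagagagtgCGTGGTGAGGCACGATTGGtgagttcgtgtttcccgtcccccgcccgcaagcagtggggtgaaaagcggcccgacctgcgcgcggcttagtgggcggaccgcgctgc
Creld2: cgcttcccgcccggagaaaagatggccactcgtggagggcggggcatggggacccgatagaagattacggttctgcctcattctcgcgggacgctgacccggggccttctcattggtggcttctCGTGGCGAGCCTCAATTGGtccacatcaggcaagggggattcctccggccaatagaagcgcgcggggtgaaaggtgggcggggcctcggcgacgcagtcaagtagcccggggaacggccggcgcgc
The matches begin 65 bases before the start in Hspa5, 212 and 107 bases before it in Hsp90b1 and 126 bases before it in Creld2. A match is a description of the letters and was not tested as a binding site.

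Interferon response and antigen presentation genes were called in the lower direction alone. Of 29 counted members 12 were called lower and 0 higher, with a median log2 difference of -0.86, against 7.52% of all genes called lower. Without the mixed PAC libraries 14 were lower, and without Col290-2 8 were. Tapbp, which loads peptides onto class I molecules, was counted at 101, 102, 117 and 112 CPM in the BPAC libraries and 222, 316, 231 and 289.8 CPM in the PAC libraries, with a log2 difference of -1.29 (SE 0.12, adjusted p = 1.13e-07). PAC stood at its EtOH level of 230 to 342 CPM or just below it, and BPAC below both. B2m, the light chain of class I molecules, was counted at 81.3, 115, 90.0 and 83.9 CPM in the BPAC libraries and 153, 205, 146 and 173 CPM in the PAC libraries, with a log2 difference of -0.87 (SE 0.13, adjusted p = 3.68e-05). With EtOH it stood at 232 to 317 CPM in BPAC and 254 to 279.5 CPM in PAC, so that both genotypes were lower with 4-HT and BPAC the lowest. The peptide transporter gene Tap2 (log2 difference -0.86, SE 0.14, adjusted p = 9.06e-05), the immunoproteasome gene Psmb10 (log2 difference -0.72, SE 0.12, adjusted p = 7.31e-05) and the interferon-induced factor gene Irf7 (log2 difference -1.02, SE 0.16, adjusted p = 4.21e-05) followed. The class I genes H2-K1 (log2 difference -0.27, adjusted p = 0.0169) and H2-D1 (-0.16, adjusted p = 0.273) were not called. Nor was the transporter gene Tap1 (-0.33, adjusted p = 0.16). The interferon-stimulated response element, GAAA and GAAA with any 2 bases between them, was found on either strand in 2.98% of all promoter windows and in 11 of the 30 windows of this list (36.7%). This list too was made of genes known for these functions, so the share is no independent result. Of the 10 genes that held the element, B2m, Ifit1bl1 and Ifit3 were called lower, while Bst2, Gbp7, Ifit1, Isg15, Oas1a, Rsad2 and Stat2 were not. It was found in 4.91% of the windows of all called lower genes and in 1.77% of those of called higher genes. The promoter of B2m (chr2:122147437-122147686, plus strand) is shown as the member with the most reads that holds it, with the match, which begins 139 bases before the start, in capitals.
B2m: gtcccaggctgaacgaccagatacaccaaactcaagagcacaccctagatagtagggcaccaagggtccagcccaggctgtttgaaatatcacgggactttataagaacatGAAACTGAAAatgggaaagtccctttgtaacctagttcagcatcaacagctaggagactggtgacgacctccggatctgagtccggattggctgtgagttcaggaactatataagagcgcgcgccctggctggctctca
Among 22 chemokine and cytokine genes 7 were lower (31.8%) and 1 higher (4.5%), against 7.52% and 8.65% of all genes; without the mixed PAC libraries 7 were lower and 3 higher. Il18, an epithelial cytokine that is released after cleavage, was counted at 11.8, 10.01, 7.18 and 7.05 CPM in the BPAC libraries and 41.1, 45.5, 40.1 and 39.2 CPM in the PAC libraries. Every PAC library stood at its EtOH level of 29.5 to 46.9 CPM, while all BPAC libraries were well below, with a log2 difference of -2.20 (SE 0.19, adjusted p = 6.51e-08). Cxcl16, a membrane-bound chemokine, was at 48.1 to 64.9 CPM in BPAC and 124 to 145 CPM in PAC, with a log2 difference of -1.22 (SE 0.15, adjusted p = 3.75e-06). The called higher member was Tgfb1, at 17.7 to 28.3 CPM in BPAC and 10.7 to 12.5 CPM in PAC, with a log2 difference of 0.92 (SE 0.17, adjusted p = 0.00025).

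The ETS core CCGGAAG and the AP-1 site TGANTCA were searched in the same windows because ERK acts through factors that bind them. CCGGAAG was present in 13.1% of the windows of counted genes, 15.9% of those of called higher genes and 4.40% of those of called lower genes, and in 0 of the 26 windows of the ERK list. TGANTCA was present in 4.89%, 3.99% and 6.45%. For the proliferation genes, CCAAT was present in 81.8% of windows and the cell cycle homology region TTTGAA in 30.3%, against 35.4% and 10.6% of the windows of counted genes. Over all 32851 windows the share was 6.91% for CCGGAAG, 6.75% for TGANTCA and 16% for TTTGAA. An absent match says only that these letters are not within the 250 bases.

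Called metabolic genes were higher for glycolysis and lower for xenobiotic metabolism and fatty acid oxidation. Of 20 glycolysis genes 6 were called higher (30%, against 8.65% of all genes) and 0 lower, with a median log2 difference of 0.77, which stood at 0.36 with EtOH, and the list's sum ran from 20350 to 27150 CPM in BPAC and from 10420 to 16200 CPM in PAC. These calls were fragile. Without the mixed libraries 8 were higher, with the cultures of each line summed 0, and with single libraries left out between 1 (Col287-2, Col290-2 or Col313-2) and 6 (Col313-1). The glucose transporter gene Slc2a1 was counted at 266, 353, 264 and 266 CPM in the BPAC libraries and 165, 169, 176 and 156 CPM in the PAC libraries, with a log2 difference of 0.78 (SE 0.16, adjusted p = 0.000726). Pfkp, a phosphofructokinase, was highest in Col287-2 at 646 CPM and had a log2 difference of 1.06 (SE 0.27, adjusted p = 0.00555), and enolase (Eno1) had a log2 difference of 0.80 (SE 0.21, adjusted p = 0.0057). Pfkp lost its call without the mixed libraries (adjusted p = 0.0153) and without any of 4 single ones (up to 0.0320, without Col287-2), and Eno1 without any of 5 single ones (up to 0.0242, without Col290-2). Of 36 xenobiotic metabolism genes 18 were called lower (50%, against 7.52% of all genes) and 0 higher, with a median log2 difference of -0.95; 18 were lower without the mixed libraries. Besides Aldh1a1, at 36.1, 53.1, 52.5 and 112 CPM in the BPAC libraries and 267, 511, 266 and 426 CPM in the PAC libraries, the list's first members by adjusted p included the glutathione transferase gene Gstm1 at 246 to 287 CPM in BPAC and 443 to 578 CPM in PAC (log2 difference -0.92, SE 0.11, adjusted p = 3.38e-06). The monoamine oxidase gene Maoa was at 171 to 436 CPM in BPAC and 622 to 864 CPM in PAC (log2 difference -1.32, SE 0.19, adjusted p = 1.93e-05), and the apical exporter gene Abcc2 at 0.809 to 1.65 CPM in BPAC and 5.73 to 7.70 CPM in PAC (log2 difference -2.39, SE 0.33, adjusted p = 1.48e-05). Of 26 fatty acid oxidation genes and PPAR targets 7 were lower (26.9%) and 0 higher, with a median log2 difference of -0.33. Among them, the fatty acid transporter gene Slc27a4 had a log2 difference of -0.57 (SE 0.10, adjusted p = 0.000115).

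Genes linked to p53 and to arrest were called in both directions. Both genotypes carried the Trp53 allele, and of 28 counted p53 targets 6 were higher (21.4%) and 1 lower (3.6%), against 8.65% and 7.52% of all genes, with a median log2 difference of 0.31. These counts fell to 2 and 0 without the mixed PAC libraries. With single libraries left out between 2 (Col312-1, Col290-2 or Col313-2) and 6 (Col287-2) were higher, with 3 without Col287-1, Col312-2 or Col290-1. Mdm2, the ubiquitin ligase that p53 induces against itself, was at 85.3 to 93.8 CPM in BPAC and 60.9 to 70.4 CPM in PAC, with a log2 difference of 0.48 (SE 0.09, adjusted p = 0.000469), and was not called without the mixed libraries (adjusted p = 0.0161). Gtse1, which is also a mitotic gene, had a log2 difference of 0.82 (SE 0.13, adjusted p = 6.32e-05), and the stress cytokine gene Gdf15 had a log2 difference of 0.94 (SE 0.23, adjusted p = 0.00312). The Gdf15 call was lost without Col312-1 (adjusted p = 0.0156), Col290-2 (0.0167) or Col313-2 (0.0139). Of 14 counted genes of arrest and senescence 2 were higher and 2 lower (14.3% each). The lower calls were 0 without Col290-2, and 1 was higher without Col312-1, Col290-2 or Col313-2. The CDK inhibitor gene Cdkn2b was at 51.9 to 89.9 CPM in BPAC and 96.9 to 132 CPM in PAC and had a log2 difference of -0.58 (SE 0.13, adjusted p = 0.00172), and was not called without Col290-2 (adjusted p = 0.0103). The lamin gene Lmnb1 was at 174 to 209.6 CPM in BPAC and 107 to 141 CPM in PAC, with a log2 difference of 0.61 (SE 0.11, adjusted p = 0.000193).

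Adhesion and Notch genes were called in both directions. Of 31 cadherin, keratin and junction genes 5 were lower (16.1%) and 1 higher (3.2%), against 7.52% and 8.65% of all genes, and 3 were lower without Col287-1, Col312-1, Col312-2, Col290-2 or Col313-2. Cldn3 and Cldn23, claudins of the tight junction, had log2 differences of -0.66 (SE 0.12, adjusted p = 0.000261) and -0.75 (SE 0.14, adjusted p = 0.000263), the junction adhesion gene F11r had a log2 difference of -0.42 (SE 0.07, adjusted p = 0.000237), and the desmosome gene Pkp1 was higher with a log2 difference of 0.62 (SE 0.12, adjusted p = 0.000411). Of 34 integrin, laminin and protease genes 7 were lower (20.6%) and 2 higher (5.9%), and 5 and 1 without the mixed libraries. The membrane-bound metalloprotease gene Mmp15 was counted at 104, 97.8, 133 and 102 CPM in the BPAC libraries and 207, 244, 212 and 214 CPM in the PAC libraries, with a log2 difference of -1.01 (SE 0.13, adjusted p = 6.77e-06), and no BPAC library reached the PAC range. The laminin gene Lamb2 (log2 difference -1.16, SE 0.19, adjusted p = 8.67e-05) and the integrin gene Itgb6 (log2 difference -0.74, SE 0.12, adjusted p = 8.96e-05) were lower, and the fibronectin receptor gene Itga5 was higher (log2 difference 0.98, SE 0.20, adjusted p = 0.000776). Of 25 BMP and Notch pathway genes 3 were higher (12%) and 1 lower (4%), and 1 and 0 without the mixed libraries. Jag2, a Notch ligand, was counted at 51.9, 59.1, 49.3 and 49.7 CPM in the BPAC libraries and 19.5, 11.8, 18.2 and 20.6 CPM in the PAC libraries. It was the BMP and Notch pathway gene with the smallest adjusted p, with a log2 difference of 1.58 (SE 0.21, adjusted p = 1e-05), or 2.99-fold. With EtOH it stood at 15.9 to 27.7 CPM in BPAC and 8.36 to 17.5 CPM in PAC (log2 difference 0.79, adjusted p = 0.632), and the contrast of the 4-HT changes was 0.79 (SE 0.30, adjusted p = 0.0962) on the log2 scale. The Notch ligand Dll1 was lower at 1.2 to 4.13 CPM in BPAC and 5.85 to 7.79 CPM in PAC (log2 difference -1.26, SE 0.26, adjusted p = 0.000837), and the BMP target Id4 was higher (log2 difference 1.01, SE 0.23, adjusted p = 0.00221). Neither Dll1 nor Id4 was called without the mixed libraries (adjusted p = 0.0112 and 0.0385), and Id4 was not called without Col287-1 (0.0125) or Col312-1 (0.0113).

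The same lines before recombination give the background for these differences. The contrast of the 4-HT change in BPAC with the 4-HT change in PAC called 482 genes (3.57%), 232 in the higher direction (1.72%) and 250 in the lower (1.85%), and 475 of them were also called between genotypes with 4-HT in the same direction. This contrast shares its 4-HT libraries with the level comparison and adds the spread of the EtOH libraries. For Asns the 4-HT change was larger in BPAC by 1.23 (SE 0.12, adjusted p = 4.32e-06) on the log2 scale, for Spry4 by 1.5 (SE 0.27, adjusted p = 0.00138) and for Etv4 by 1.06 (SE 0.20, adjusted p = 0.00214). For Il18 this log2 contrast was -2.47 (SE 0.26, adjusted p = 5.5e-06), for Guca2a -1.94 (SE 0.26, adjusted p = 0.000126) and for Tapbp -1.2 (SE 0.16, adjusted p = 0.000126). The contrast did not pass for Egln3, with 1.62 (SE 0.80, adjusted p = 0.222), nor for Slc2a1, with 0.36 (SE 0.22, adjusted p = 0.352). Nor did it pass for Hif3a, with 1.29 (SE 0.95, adjusted p = 0.452), whose log2 difference was 1.74 with EtOH. Etv5 and Dusp6 did not pass either, with 0.91 (SE 0.27, adjusted p = 0.0323) and 0.79 (SE 0.23, adjusted p = 0.0285). In both, EtOH libraries of BPAC reached higher levels than those of PAC, Etv5 up to 46.3 against 23.6 CPM and Dusp6 up to 102 against 79.0 CPM, and the genotypes overlapped. Absorptive colonocyte genes had 10 of 35 lower and 0 higher in this contrast and xenobiotic metabolism genes 9 of 36 lower and 0 higher, against 1.85% of all genes. Interferon and antigen presentation genes had 5 of 29 lower. Unfolded protein response genes had 7 of 28 higher and 0 lower, against 1.72%. Of the other lists with higher calls between the genotypes, this contrast called 5 of 36 proliferation genes, 2 of 29 genes of the ERK list, 1 of 28 ribosome biogenesis genes, 0 of 20 glycolysis genes and 0 of 28 p53 targets higher. Without the mixed PAC libraries the contrast called 140 genes higher and 201 lower. Leaving out Col287-1, Col312-2, Col290-2 or Col313-1 with 4-HT gave 105, 146, 117 and 153 higher genes, and leaving out Col290-1 or Col313-2 with EtOH gave 145 and 125. The lower genes were 156 without Col287-1 and 154 without Col290-2 with 4-HT.

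**Figure D5:**
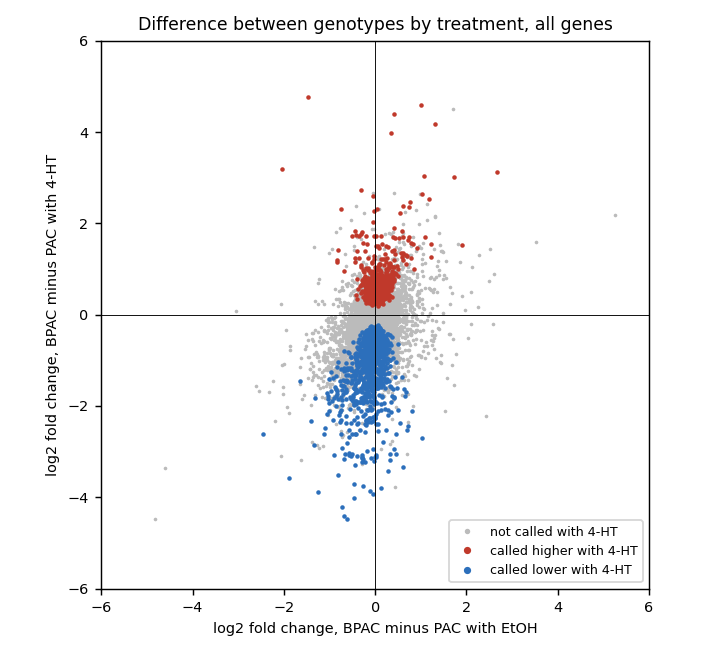
Log2 difference between BPAC and PAC for all 13519 genes with EtOH (horizontal axis) and with 4-HT (vertical axis), in red and blue where called higher or lower with 4-HT and in grey otherwise. The 2187 called genes spread along the vertical axis, and none of the genes was called with EtOH.

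Organoids with wild-type Trp53 gave a comparison of the same Braf allele in other donors. BAC minus AC with 4-HT used 6 libraries that are not part of the BPAC and PAC comparison, with AC represented by 1 line. It called 1505 genes (11.1%), 727 higher (5.38%) and 778 lower (5.75%). Of the 2187 genes called between BPAC and PAC, 2179 (99.6%) had the same sign in BAC minus AC, against 82.4% of all genes, and 1109 were called there in the same direction, which is 50.7% of one set and 73.7% of the other. The difference between the comparisons was called for no gene with edgeR (0%, 342 at an unadjusted p below 0.05), for none with limma-voom (406) and for 1 with DESeq2 (406). Spry4 had a log2 difference of 1.76 (SE 0.25, adjusted p = 4.95e-05) in BAC minus AC, Etv4 of 1.31 (SE 0.18, adjusted p = 4.76e-05) and Il18 of -2.31 (SE 0.21, adjusted p = 4.67e-07). Sis, which was called in BPAC, had one of -1.66 (SE 0.55, adjusted p = 0.0315). The called p53 targets Mdm2 and Gdf15 did not pass in BAC minus AC, with log2 differences of 0.20 (SE 0.11, adjusted p = 0.215) and 0.76 (SE 0.28, adjusted p = 0.0524), and of the 28 counted p53 targets none was called there. Jag2 had a log2 difference of 1.90 (SE 0.28, adjusted p = 7.2e-05) in BAC minus AC, and Ly6e, which was called in BPAC, one of 0.32 (SE 0.32, adjusted p = 0.497).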

How the data were processed

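RNA was sequenced from colon organoids, and the authors deposited raw counts, the whole number of reads per gene and library without normalization, for 13519 genes by Ensembl identifier. Per the submitters' processing notes, reads were trimmed with Trimmomatic 0.39 and aligned to GRCm38 with STAR 2.5.2b, while the counting program, its annotation and its strandedness are not given in the sources used here, so reads of overlapping or antisense genes cannot be told apart. No gene had a row sum below 116. Symbols were matched for 13479 genes. Library totals are given in the report, and counts without molecular identifiers carry more than counting error.

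Groups were taken from the sample labels. Counts were scaled with TMM and tested with the quasi-likelihood test of edgeR 4.0.16 (R 4.3.3) on 1 coefficient for each of the 8 combinations of genotype and treatment over all 28 libraries, so that all groups share 1 spread. P-values were adjusted by Benjamini-Hochberg over all genes, and 0.01 was the threshold, after the study's methods, which name limma. Limma-voom (limma 3.58.1) and DESeq2 1.42.0 were alternatives, as were other scalings, filters and thresholds, fits of fewer libraries, lines summed, replicate blocks, and each library or line left out. Summing the mixed PAC libraries, thinning to the smallest total, the line as a random block, and the comparison with BAC and AC were added after the data were seen.

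The genes named were the 12 that rose most and the 12 that fell most (BPAC minus PAC, log2) among called genes with a symbol, a mean of at least 5 CPM and no overlap between the 4 BPAC and 4 PAC libraries. To these were added Braf, Trp53 and Apc, and of each gene list up to 6 members in order of adjusted p and its defining members, of which some are not reported here. Dusp7, Spry1, Spry2, Errfi1 and Dusp10 were added after their values were seen. So were Mki67, Top2a, H2-K1, H2-D1 and Tap1, which were not examined in the closing sections. The lists, and the choice of this comparison, were made with earlier results of these data known. CPM values are not scaled to gene length, so levels are compared between libraries and not between genes. Promoter windows came from RefSeq (GRCm38.p6), of which 10113 counted genes had one. Figures were drawn with matplotlib 3.10.9 in Python 3.11.15.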

Additional observations from a re-analysis of the deposited data

Results flagged for a closer look

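Single libraries stood apart from the other 3 of their group for 14 of 246 groups of values, where chance alone flags about 1 in 20 groups. The BPAC library Col287-2 was the highest for Cav1 (174 CPM), Slc2a1 (353 CPM) and Pfkp (646 CPM) and the lowest for Gtse1 (75.3 CPM). Col287-1 was the highest BPAC library for Ccnb1 (218 CPM) and Hspa5 (1085 CPM), Col312-1 for Mmp15 (133 CPM) and Col312-2 for Braf (23.4 CPM). Among the PAC libraries, Col313-2 was the highest for Slc26a3 (157 CPM) and the lowest for Agr2 (461 CPM), Irf7 (27.4 CPM) and Xbp1 (186 CPM), and Col290-2 was the highest for Naaladl1 (52.1 CPM) and Id4 (3.50 CPM).

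The change from EtOH to 4-HT differed between BPAC and PAC for 49 of 123 genes whose values are given, tested as an interaction over all genes (edgeR quasi-likelihood test, Benjamini-Hochberg adjusted p below 0.01), with 17 higher and 32 lower in BPAC, against 3.57% of all genes. Most of these genes were chosen for a difference with 4-HT, and the contrast shares those 4-HT libraries, so a high count was built in. The log2 contrasts of the higher genes were Lgals1 3.03, Nptx2 2.09, Ly6c1 2.08, Trib3 1.93, Spry4 1.5, Asns 1.23, Etv4 1.06, Tgfb1 1.00, Rrm2 0.81, Ccnb1 0.81, Ly6a 0.74, Pkp1 0.73, Wdr43 0.66, Ccna2 0.65, Hspa5 0.60, Creld2 0.50 and Hsp90b1 0.46. Among brush border, transport and metabolic genes the log2 contrasts were Cyp2c68 -3.38, Slc13a1 -3.24, Sis -3.10, Anpep -2.97, Enpep -2.94, Cyp4v3 -2.77, Naaladl1 -2.62, Ces1g -2.56, Aldh1a1 -2.21, Slc6a14 -2.10, Abcc2 -1.99, Guca2a -1.94, Mep1a -1.93, Cdhr5 -1.20, Maoa -1.16, Gstm1 -0.71 and Slc27a4 -0.64. Among immune genes they were Il18 -2.47, Ccl6 -2.17, Tapbp -1.20, Irf7 -1.12, Tap2 -0.99, Cxcl16 -0.97 and B2m -0.84. The other log2 contrasts were Apol10a -2.35, Ppara -2.15, Mmp15 -1.22, Cpe -1.15, Jun -1.01, Itgb6 -1.01, Muc13 -0.76 and Isx -0.56.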

How the results depend on the processing

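The 2187 genes called between BPAC and PAC with 4-HT kept their direction under every setting in which they were tested (2083 at the filter of 1 CPM, 1999 at a mean count of 50, all under the others), and no setting moved the median of all genes by more than 0.1 on the log2 scale. The numbers of genes higher and lower (1170 and 1017) were 710 and 665 with BPAC and PAC libraries alone in the fit, 745 and 803 with the 8 libraries alone, 2033 and 1829 at a threshold of 0.05, and 109 and 474 at 2-fold. They were 863 and 867 with culture 1 alone and 56 and 97 with culture 2 alone. With 1 library or line left out they ran from 351 to 1167 and from 441 to 961. With EtOH (0 and 0 genes) DESeq2 called 1 lower gene, and leaving out libraries or lines gave 0 to 1 higher gene.

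The contrast of 4-HT changes (232 and 250 genes) gave 468 and 427 with DESeq2, 143 higher with library size alone, 31 and 56 with BPAC and PAC alone, 62 and 112 with lines summed, 630 and 603 at 0.05, 33 and 150 at 2-fold, 140 higher without the mixed libraries, 38 and 137 with culture 1 alone, 0 and 1 with culture 2 alone, and 378 and 400 with limma-voom and the line as a random block. Leaving out libraries or lines gave 14 to 290 higher and 18 to 327 lower.

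The culture numbers 1 and 2 were used as a replicate block. In their deviations from the group means, same-numbered libraries of BPAC and PAC correlated at 0.007 to 0.338 with 4-HT, against -0.385 to -0.016 for other pairs, and at -0.242 to 0.462 with EtOH, against -0.431 to 0.223. The paper states that organoids of 2 passages were used, but the labels do not say that the numbers stand for them. Since not every pair passed 0.1, the main fit did not pair the libraries by number. An effect shared by number would therefore stay in its spread. The block raised the calls to 1941 and 1520 (Spry1 and Car1 among them, adjusted p = 0.00957 and 0.00281, and 9 in place of 7 higher genes of the ERK list), and those of the contrast of 4-HT changes to 592 and 507. With each culture as the replicate block of its EtOH and 4-HT libraries the contrast called 516 and 649.

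Of the genes named, 6 changed sign, none of them called. The log2 difference of Apc (0.05) was -0.134 without both mixed libraries, -0.015 with them summed, and -0.052 to 0.12 with libraries or lines left out. Krt20 (-0.04) was 0.469 with culture 2 alone and -0.533 to 0.27 with 1 left out, and Muc2 (-0.32) was -0.767 to 0.025 with 1 left out. Anxa10 (0.03) was -0.016 with limma-voom, -0.009 with the filter at a mean count of 50, -0.060 with culture 1 alone, -0.017 with the line as a random block, and -0.55 to 0.432 with 1 left out. Spry2 (0.05) was -0.020 without both mixed libraries. Cdx2 (0.08) was -0.383 with culture 1 alone and -0.044 to 0.177 with 1 left out. The causes of these changes were not tested.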
